A study of Mus musculus with 14 samples.

Results

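The genes described here are 9 chemokines and chemokine receptors of microglia, the resident macrophages of the brain. They are the ligand genes Ccl2, Ccl3, Ccl4, Ccl6, Ccl9, Ccl12 and Cxcl16, the receptor gene Cxcr4 and the atypical receptor gene Ccrl2. They were chosen by symbol, each had a single row in the deposited table, and they make up 9 of its 14242 genes. Expression was measured in microglia of germ-free (GF) C57BL/6 mice, which carry no microorganisms, and of specific-pathogen-free (SPF) C57BL/6 mice, which carry commensal ones, with 7 libraries per group. Mice of both groups were 6 to 8 weeks old and received no treatment, and the study asked how microglia differ when the commensal microbiota is absent. The design gives 1000 cells per brain, sorted on CD11b and a low level of CD45, and the libraries read the 3' ends of polyadenylated RNA. The labels name neither sex, litter, cage nor batch, and do not state that each library is a separate animal, so p-values measure the spread between these libraries.

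Chemokines are small secreted proteins that direct the migration of cells along their gradients, and they act on receptors that signal through heterotrimeric G proteins of the inhibitory class. In the mouse, Ccl2 and Ccl12 encode CCL2 and CCL12, ligands of CCR2, the receptor that draws monocytes out of the blood. Ccl3 and Ccl4 encode CCL3 and CCL4, inflammatory attractants of macrophages and T cells, and CCL3 binds CCR1. Ccl6 and Ccl9 encode CCL6 and CCL9, rodent CC chemokines that act on CCR1. Cxcl16 encodes a membrane-bound ligand of CXCR6 that ADAM10 releases by cleavage, Cxcr4 the receptor for CXCL12, and Ccrl2 an atypical receptor that binds chemerin.

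All 7 ligand genes lie on mouse chromosome 11. The bases just before the transcription start are shown for Ccl12, which fell in GF microglia, and for Ccl3, Ccl6 and Ccl9, CC ligand genes of the same chromosome that did not pass the test. They come from RefSeq on GRCm38.p6, a later build than the mm9 used for the reads, read 5′ to 3′ on the strand of the gene. Of the 9 genes, 6 were found in that table. Capitals mark matches to TATAAA (the TATA box, sense strand), GAGGAA (a core bound by PU.1, the myeloid transcription factor, both strands) and TGANTCA (AP-1, both strands).
Ccl12 (chr11:82101595-82101844, plus strand): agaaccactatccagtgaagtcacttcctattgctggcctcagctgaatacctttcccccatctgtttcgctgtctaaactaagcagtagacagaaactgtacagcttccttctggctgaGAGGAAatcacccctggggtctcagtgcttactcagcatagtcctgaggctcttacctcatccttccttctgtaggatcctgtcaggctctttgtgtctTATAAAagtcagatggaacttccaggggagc
Ccl3 (chr11:83649379-83649628, minus strand): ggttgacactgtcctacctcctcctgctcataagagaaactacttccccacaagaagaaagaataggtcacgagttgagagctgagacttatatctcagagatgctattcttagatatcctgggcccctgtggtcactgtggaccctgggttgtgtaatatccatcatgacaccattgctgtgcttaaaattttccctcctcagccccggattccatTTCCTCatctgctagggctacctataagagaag
Ccl6 (chr11:83593088-83593337, minus strand): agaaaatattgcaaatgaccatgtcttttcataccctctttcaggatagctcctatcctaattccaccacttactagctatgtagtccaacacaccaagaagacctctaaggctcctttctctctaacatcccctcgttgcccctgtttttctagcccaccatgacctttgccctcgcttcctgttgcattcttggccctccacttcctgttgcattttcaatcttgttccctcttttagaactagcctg
Ccl9 (chr11:83578637-83578886, minus strand): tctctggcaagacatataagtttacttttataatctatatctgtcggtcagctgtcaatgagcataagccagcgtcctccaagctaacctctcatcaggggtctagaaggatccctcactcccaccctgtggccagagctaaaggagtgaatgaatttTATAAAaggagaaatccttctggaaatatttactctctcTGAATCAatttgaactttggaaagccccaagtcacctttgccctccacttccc

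The window of Ccl12 held a TATA box that began 31 bases before the start and a GAGGAA that began 130 bases before it. The window of Ccl9 held a TATAAA match 92 bases before the start and an AP-1 match 53 bases before it, and that of Ccl3 a PU.1 match 33 bases before it. No match lay in the window of Ccl6. Of all 32851 promoter windows of 250 bases, 7.59% held TATAAA, 23.3% held GAGGAA and 6.75% held TGANTCA. A narrow form of the NF-kB motif and a single form of the interferon-stimulated response element were also searched on both strands. Neither form lay in any of these 4 windows, while 1.21% and 2.98% of all windows held them. Looser forms of the NF-kB motif were not searched, so its absence holds for the narrow form only. No matched motif overlapped another in these 4 windows.

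Libraries held between 680952 and 1193578 read equivalents in GF and between 910817 and 1640001 in SPF, where a read equivalent is the smallest step of a library's deposited values. GF 6 had the lowest depth. The 14 defining markers of microglia were all present, with summed values between 52908 and 60149 normalized counts in GF and between 48635 and 56600 in SPF. Single markers were not steady, since 3 of the 14 rose and 3 fell, among them P2ry12, a purinergic receptor gene, at 1371 ± 193 in GF and 2633 ± 307 in SPF (SD, n = 7 each, limma adjusted p = 6.8e-07). GF 1 stood apart in class II and dendritic cell genes, with a summed 3220 normalized counts against at most 172 in the other libraries, and GF 6 in erythroid genes, with 1839 against at most 61.3. In all, 327 genes rose and 274 fell in GF of 8842 tested (limma, Benjamini-Hochberg adjusted p under 0.05), or 204 and 423 with upper-quartile scaling, which moved the median log2 difference of all genes to -0.11 from -0.02. Since microglia were compared in bulk, fewer cells of a type and less RNA per cell cannot be told apart.

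Germ-free microglia held fewer transcripts of Ccl12, at 33.4 ± 5.16 normalized counts in GF and 69.4 ± 23.0 in SPF (SD, n = 7 each), and no other member passed the threshold. Of the 8 members abundant enough to test, 1 fell and 0 rose, where 3.10% of all genes tested fell, 3.70% rose and 6.80% did either. At an unadjusted p under 0.05, 2 of the 8 were lower, Ccl2 and Ccl12, where 22.0% of all genes passed in either direction. The median log2 difference of the 8 was 0.00, with 4 above 0 and 4 below, against a median of -0.02 over all genes tested. Cxcr4 was too scarce to test.

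**Figure D1:**
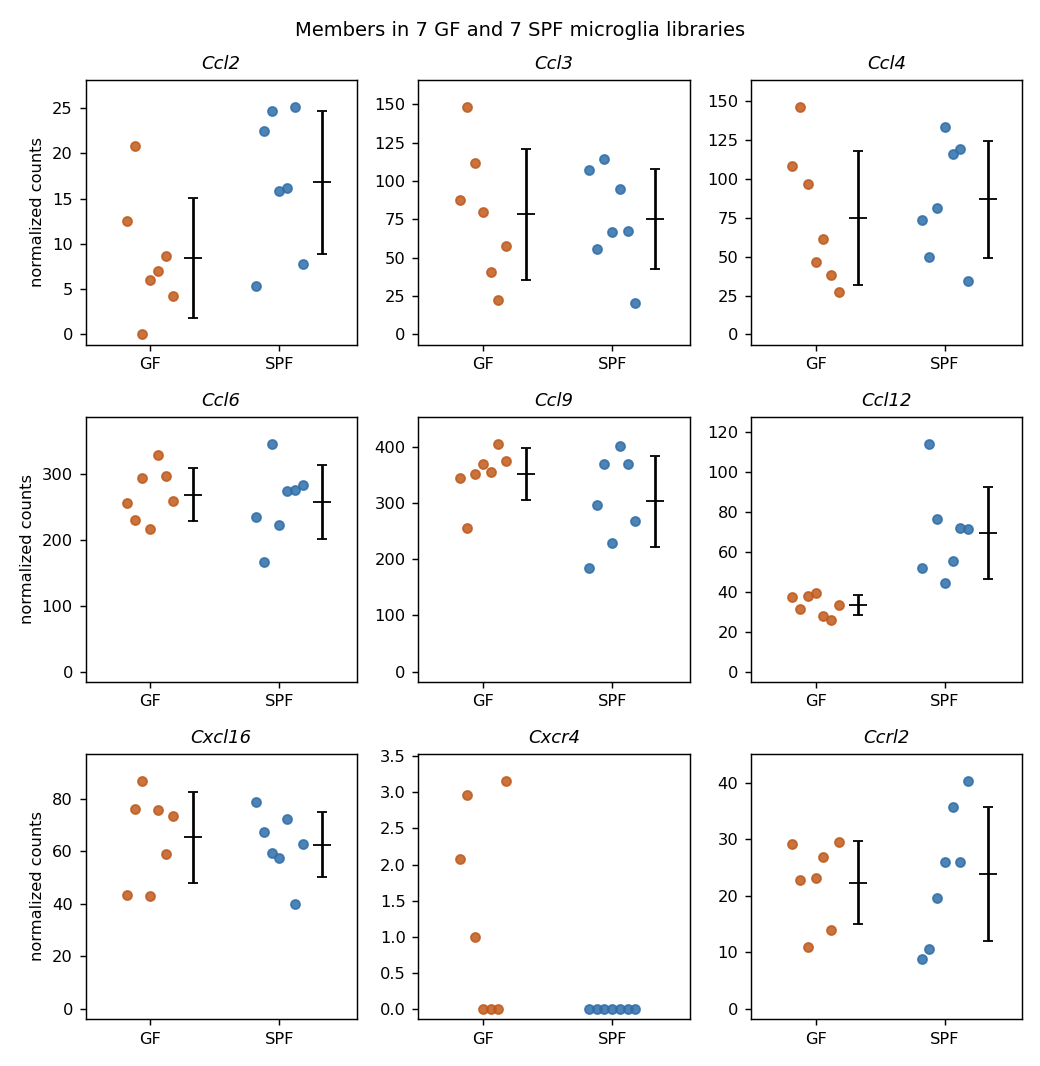
Normalized counts of the 9 genes, one point per library in order of replicate number, with GF left of SPF and the mean ± SD (bars, n = 7) beside each group except for Cxcr4. The 7 GF values of Ccl12 lie between 26.04 and 39.3, below all SPF values, and in the other genes the groups overlap.

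Among the CCR2 ligands, Ccl12 stood at 26.04 normalized counts in the lowest GF library, 33.6 at the GF median and 39.3 in the highest, against 44.3, 71.4 and 114 in SPF libraries. All 7 GF libraries lay below the lowest SPF library, a separation that 0.893% of all genes tested showed in that direction. No tested member had all GF libraries above all SPF libraries, as 1.28% of the genes tested did. Ccl12 fell by 0.98 on the log2 scale (SE 0.22, 95% confidence interval -1.42 to -0.53, limma adjusted p = 0.00588), and its rank by p among the genes tested was 176. SPF 2 was the highest library, at 114. Without it the log2 difference was -0.85 (limma adjusted p = 0.0173), and over all 28 alternatives it lay between -1.07 and -0.79, with adjusted p from 0.00377 to 0.0295.

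Ccl2 was scarce in both groups. Its values were 12.5, 20.8, 0, 6.05, 6.97, 8.68 and 4.21 normalized counts in GF 1 to GF 7, and 5.30, 22.5, 24.6, 15.9, 16.2, 25.1 and 7.77 in SPF 1 to SPF 7. The groups overlapped, since SPF 1 and SPF 7 stood among the GF libraries and GF 2 among the higher SPF libraries. The log2 difference was -1.09 with an SE of 0.51 (95% confidence interval -2.14 to -0.03), and it did not pass after adjustment (limma adjusted p = 0.213). It was -0.68 without GF 3, in which Ccl2 was at 0, and -0.64 with 5 times the pseudocount. These values rest on 55 reads in all GF libraries and 137 in all SPF libraries.

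Border macrophages also express CC chemokines, and their markers were summed in each library. The 5 genes of that list found in the table, Mrc1, Pf4, Ms4a7, Cbr2 and Clec10a, summed to between 0 and 21.8 normalized counts in GF, with a median of 7.96, and to between 2.83 and 40.2 in SPF, with a median of 20.8. Mrc1, the mannose receptor gene and the single member tested, did not pass (limma adjusted p = 0.0896), and Pf4 was at 0 in all GF libraries, while Ms4a7 and Clec10a were at 0 in all SPF libraries. The sums of the groups overlapped. SPF 2 had the highest sum and the highest Ccl12. SPF 7, with a sum of 2.83, held 71.4 normalized counts of Ccl12, and GF 2, with a sum of 21.8, held 31.6. The part of these cells in the difference of Ccl12 was not tested.

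The inflammatory ligand genes Ccl3 and Ccl4 varied widely between libraries of the same group. Ccl3 stood at 22.6 normalized counts in its lowest GF library, 79.7 at the median and 148 in its highest, against 20.5, 67.5 and 115 in SPF. The GF range enclosed all but the lowest SPF library. Ccl4 stood at 27.3, 61.7 and 146 in GF, against 34.6, 81.6 and 134 in SPF, and again the groups overlapped over nearly their whole range. The log2 differences were 0.01 for Ccl3 (SE 0.35, 95% confidence interval -0.71 to 0.72, limma adjusted p = 0.995) and -0.29 for Ccl4 (SE 0.32, interval -0.95 to 0.38, adjusted p = 0.653). That of Ccl4 was -0.48 without GF 2 or without SPF 7 and -0.087 without GF 7. The width of these intervals leaves differences of either sign possible.

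Ccl6 and Ccl9, the CCR1 ligand genes, were steadier. Ccl6 stood at 217 normalized counts in its lowest GF library, 260 at the median and 329 in its highest, against 167, 274 and 346 in SPF. Every GF value lay inside the SPF range. Ccl9 stood at 256, 355 and 405 in GF, against 184, 297 and 402 in SPF, and GF 6 alone exceeded the highest SPF library. The log2 difference was 0.08 for Ccl6 (SE 0.14, 95% confidence interval -0.21 to 0.37, limma adjusted p = 0.786). For Ccl9 it was 0.25 (SE 0.15, interval -0.06 to 0.55, adjusted p = 0.343), or 0.14 without SPF 1 and 0.16 with upper-quartile scaling.

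Cxcl16 and Ccrl2 did not differ past the threshold either. Cxcl16 stood at 42.9 normalized counts in its lowest GF library, 73.6 at the median and 86.7 in its highest, against 39.8, 62.9 and 78.7 in SPF. The log2 difference was 0.04 (SE 0.20, 95% confidence interval -0.37 to 0.46, limma adjusted p = 0.930). Ccrl2 stood at 10.96, 23.2 and 29.4 in GF, all inside the SPF range, and at 8.84, 25.9 and 40.3 in SPF. Its log2 difference was 0.00 (SE 0.34, interval -0.71 to 0.71, adjusted p = 0.9996).

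Transcripts of Cxcr4 were close to the limit of detection. They amounted to 2, 3, 1 and 3 reads in GF 1, GF 2, GF 3 and GF 7, and the gene was listed at 0 in GF 4, GF 5, GF 6 and all 7 SPF libraries. The count of 0 in SPF allows up to 3 reads in 9230698 read equivalents, counting error only. The gene failed the filter on low values, and in a fit with no filter it did not pass (limma adjusted p = 0.179).

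**Figure D2:**
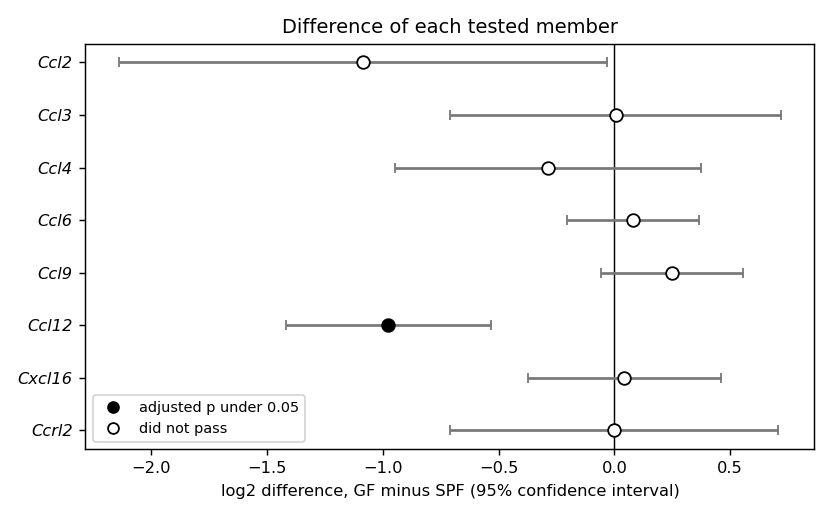
Log2 difference, GF minus SPF, of the 8 tested genes (x axis) with its 95% confidence interval, filled where the adjusted p was under 0.05. Ccl12 is the single filled point, at -0.98, and the interval of Ccl2 is the widest, from -2.14 to -0.03.

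The genes differed in how far their libraries spread beyond counting error. The coefficient of variation of Ccl12 was 15.4% among GF libraries, where counting error alone gives 18.3%, and 33.2% among SPF libraries, where counting error gives 11.1%. The GF libraries of Ccl12 thus varied no more than their 15 to 39 reads allow. Ccl3 and Ccl4 had coefficients of variation of 54.7% and 57.8% in GF and of 43.6% and 43.1% in SPF. Counting error gives 11.9% and 12.2% for them in GF and 10.7% and 9.93% in SPF, so their variance was between 16.7 and 22.5 times the counting variance. Ccl9 varied by 13.2% in GF and 26.8% in SPF, and Ccl6 by 14.8% and 21.9%. Differences in spread between the groups were not tested. Whether molecular tags were used is not stated, and reads without them are not independent molecules.

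**Figure D3:**
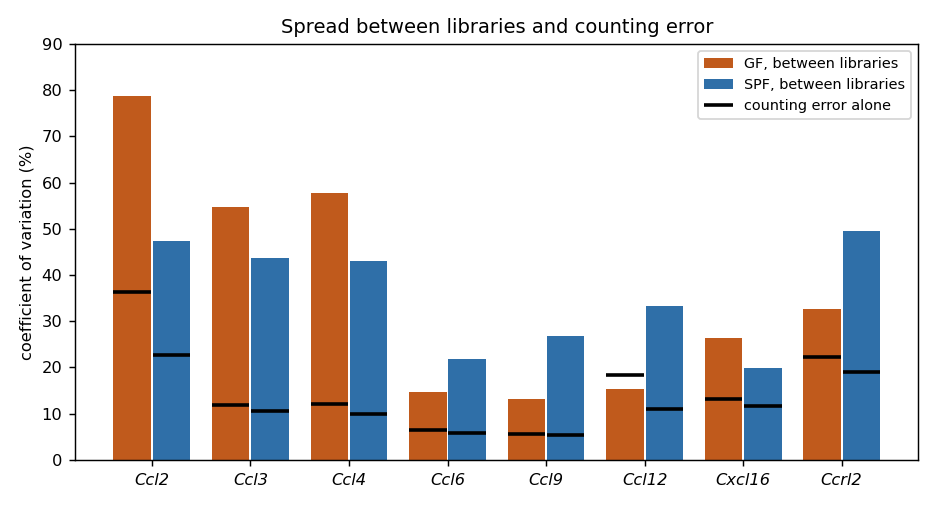
Coefficient of variation between libraries (bars, %) of each tested gene in GF and SPF, n = 7 each, with the coefficient that counting error alone would give (black lines). The bars of Ccl3 and Ccl4 reach 54.7% and 57.8% in GF, and the GF bar of Ccl12, at 15.4%, stays under its line.

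Pairs of related ligand genes were compared as ratios within libraries, each value taken with the pseudocount of 1.44 added. The log2 ratio of Ccl2 over Ccl12 was -2.16 ± 1.34 in GF and -2.05 ± 0.70 in SPF (SD, n = 7 each, two-sided exact permutation p = 0.869). That of Ccl3 over Ccl4 was 0.06 ± 0.66 in GF and -0.23 ± 0.63 in SPF (exact permutation p = 0.407). That of Ccl6 over Ccl9 was -0.38 ± 0.23 in GF and -0.21 ± 0.40 in SPF (exact permutation p = 0.359). Adjusted over the 3 pairs, each p was at least 0.610, where the smallest p the 3432 divisions allow is 0.000583. The ratio of Ccl2 over Ccl12 turned to a difference of 0.32 without GF 3, in which Ccl2 was at 0, from -0.11 with all libraries.

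Ccl3 and Ccl4 tended to be high in the same libraries, but no relation passed the correction. In GF, where GF 2 was highest in both, Pearson's r was 0.71 (exact permutation p = 0.0736) and Spearman's rho 0.79 (exact permutation p = 0.0480) over 7 libraries. In SPF, where SPF 7 was lowest in both, r was 0.67 (exact permutation p = 0.0927) and rho 0.32 (exact permutation p = 0.498). Without the 2 libraries farthest from the median of Ccl3, r was 0.91 in GF and 0.19 in SPF, so the relation in SPF rests on those libraries. Ccl6 with Ccl9 gave r of 0.41 in GF and 0.42 in SPF, with rho of 0.36 and 0.43, and r of 0.81 and 0.74 without the farthest libraries. Ccl2 with Ccl12 gave r of -0.35 in GF and 0.45 in SPF, with rho of -0.46 and 0.68, and r of -0.02 and 0.74 without them. Exact permutation p-values of these 4 relations lay between 0.317 and 0.465 for r and between 0.110 and 0.444 for rho. Over the 6 relations the smallest adjusted p was 0.278 for r and 0.288 for rho.

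**Figure D4:**
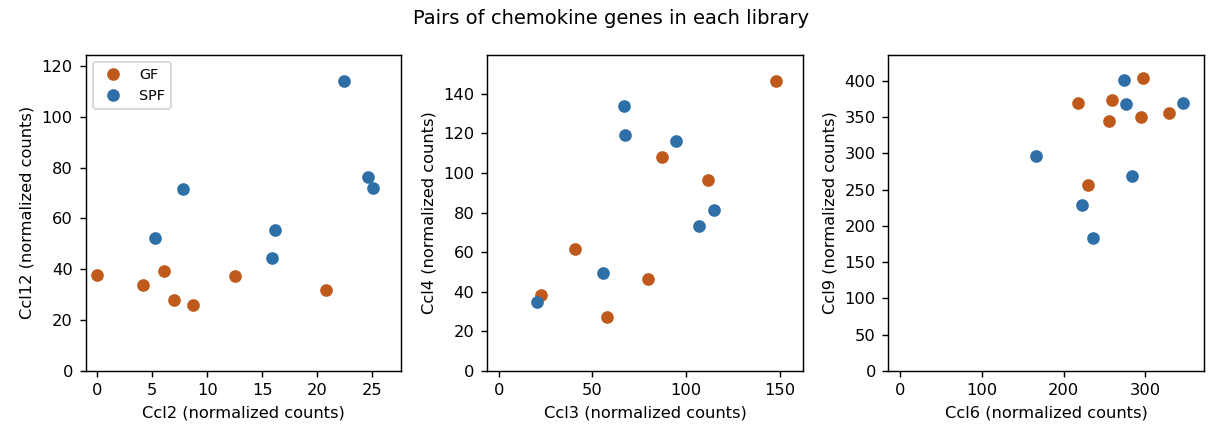
Normalized counts of 3 pairs of ligand genes, one point per library, GF and SPF in different colours. Ccl12 (first panel, y axis) separates the groups, whereas Ccl3 with Ccl4 and Ccl6 with Ccl9 mix them.

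The transcripts of the members share almost no exact stretches of 30 bases. Of the 36 pairs of members, only Ccl9 with Ccrl2 shared any such stretch in the GENCODE M21 transcripts, namely 1. Inexact matches and genes other than the members were not compared. Read equivalents were whole in 10 of 14 libraries for Ccl6, 13 for Ccl9, 13 for Ccl12 and 11 for Cxcl16, and in all 14 for the other members. Ccl12 had 96.5 in SPF 2. The cause of the fractions was not tested. The read length was not analysed here.

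The genes most like each of the 8 tested members across the 14 libraries were taken from the whole table, so a high r was fixed by the choice. After centring on the group means, the pair most like Ccl12 among 3875 genes with at least 50 normalized counts was Mib2, a ubiquitin ligase gene (Pearson's r 0.83), and Trim56, a tripartite-motif ubiquitin ligase gene (0.83). For Ccl3 it was Esrra, an orphan nuclear receptor gene (0.81), and Glt25d1, a collagen galactosyltransferase gene (0.80). For Ccl4 it was Rmnd5b (0.83) and Jup, which encodes plakoglobin (0.83). For Ccl6 it was Ai314976 (0.88) and Tmem176a (0.84), and for Ccl9 it was Cdc37, a kinase cochaperone gene (0.89), and Scamp1 (0.85). For Cxcl16, Tor2a (0.83) was 1 of the pair. Among 3876 genes, it was Fam108c (0.82) and Inpp5d, which encodes the phosphatase SHIP (0.80), for Ccl2, and Rpl5 (0.85) and Fam108a (0.81) for Ccrl2. These r are the highest over all genes compared, rest on 14 shared libraries and carry no p. Mib2 fell by 0.68 on the log2 scale and Tmem176a rose by 0.42, the only 2 of the 16 to pass (limma adjusted p = 0.0132 and 0.0253).

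Among the other chemokine ligand and receptor genes few were tested and no call was made, where 6.80% of all genes tested passed in either direction. With so few genes tested, the lack of calls is near that share. Of 6 other CC ligand genes in the table, 2 passed the filter on low values and 0 passed the test, and of 11 other CXC, CX3C and XC ligand genes 1 passed the filter and 0 the test. Ccl5, a lymphocyte and myeloid attractant, stood at 0 to 73.9 normalized counts in GF and 0 to 22.1 in SPF (log2 difference 1.82 ± 0.84 SE, limma adjusted p = 0.203). Its highest value was that of GF 1, the library with the high class II transcripts. Cxcl10, an interferon-induced ligand, stood at 0 to 12.1 in GF and 0 to 166 in SPF (adjusted p = 0.681), and SPF 3 alone made up the SPF maximum.

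Of 15 other chemokine receptor genes in the table, 4 were tested and 0 passed, where 6.80% of all genes tested did. Cx3cr1, the receptor gene for neuronal fractalkine, stood at 7034 ± 1295 normalized counts in GF and 6211 ± 806 in SPF (SD, n = 7 each, limma adjusted p = 0.350). Ccr1, the receptor gene for the products of Ccl6 and Ccl9, failed the filter, with 9 reads over all GF libraries and 74 over all SPF libraries. In a fit with no filter its log2 difference was -1.86 ± 0.52 (SE, limma adjusted p = 0.0513). Ccr2, the receptor gene for those of Ccl2 and Ccl12, was at 0 in all 7 GF libraries and in 3 SPF libraries, with 1, 16, 8 and 16 reads in SPF 4 to SPF 7 (adjusted p = 0.144 in that fit). Ccr1 and Ccr2 were named after their values were seen, because their ligands are members. Of the 6 genes in the table on the list of atypical receptors and their partners, 3 were tested and 0 passed, beside the same 6.80%. Mif, which encodes a cytokine that also binds CXCR4, had the smallest p, at 107 ± 18.6 in GF and 80.9 ± 6.30 in SPF (SD, n = 7 each, adjusted p = 0.131).

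**Figure D5:**
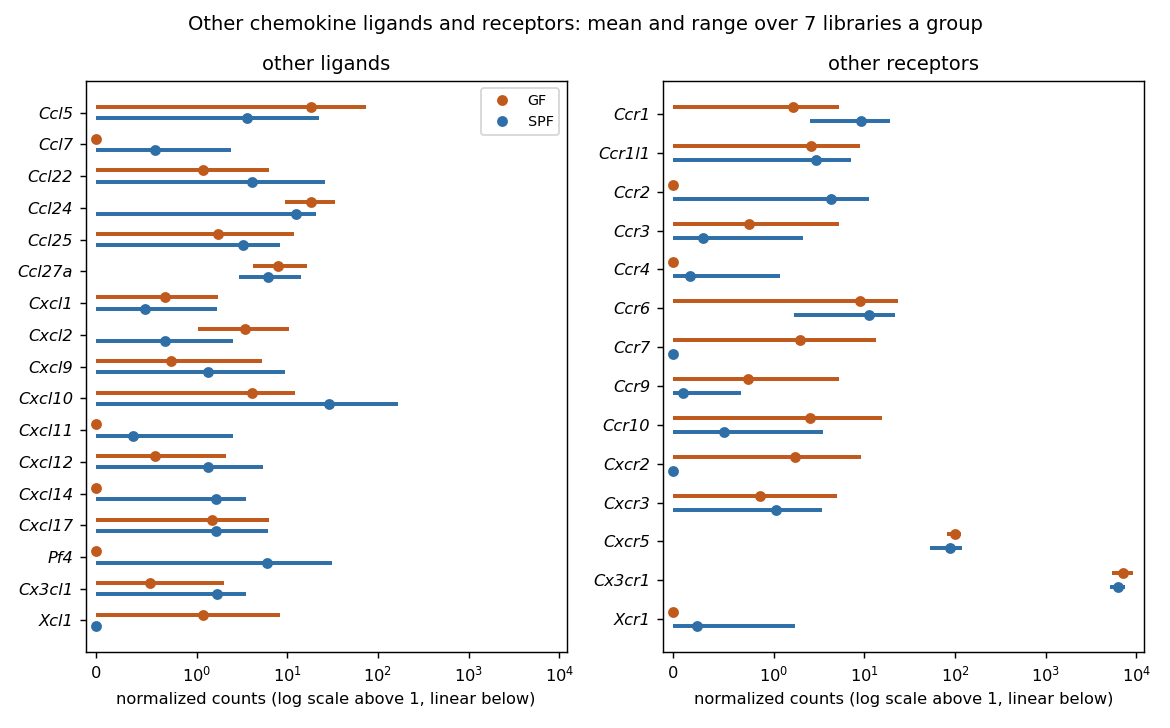
Mean (points) and range (lines) of normalized counts over 7 GF and 7 SPF libraries for other chemokine ligand and receptor genes in the table, on an axis that is logarithmic above 1 and linear below. Most lie under 10 normalized counts, while Cx3cr1 averages 7034 in GF and 6211 in SPF, and Ccr2 and Pf4 are at 0 in GF.

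Of 25 genes tested in receptor signalling and desensitisation, the steps downstream of chemokine receptors, 1 rose and 2 fell, where 3.70% of all genes tested rose and 3.10% fell. Their median log2 difference was -0.12, against -0.02 over all genes tested. Vav1, an exchange factor gene for small GTPases, stood at 660 ± 92.4 normalized counts in GF and 437 ± 62.9 in SPF (SD, n = 7 each), and rose by 0.60 ± 0.11 (SE) on the log2 scale (limma adjusted p = 0.00155). Elmo1, which with DOCK proteins activates RAC, stood at 13.4 ± 6.14 in GF and 45.5 ± 18.03 in SPF, and fell by 1.69 (adjusted p = 0.00394). Rgs2, which limits G protein signals, stood at 863 ± 127 in GF and 1077 ± 123 in SPF, and fell by 0.32 (adjusted p = 0.0449), a call that 15 of 28 alternatives ended. Leaving out any 1 of GF 2, GF 3, GF 4, GF 5, GF 6, GF 7, SPF 1, SPF 2, SPF 5, SPF 6 or SPF 7 ended it, and over all alternatives the adjusted p reached 0.179. Gnai2, the abundant inhibitory G alpha gene, chosen after its values were seen, had a log2 difference of 0.04 (adjusted p = 0.848).

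Among genes of chemokine release and cleavage, 1 of 7 tested rose and 0 fell, where 3.70% of all genes tested rose and 3.10% fell. Their median log2 difference was -0.03. Mmp14, a membrane-bound metalloprotease gene, stood at 144 ± 23.7 in GF and 93.7 ± 12.9 in SPF (SD, n = 7 each), and rose by 0.60 ± 0.15 (SE) on the log2 scale (limma adjusted p = 0.0137). Without GF 1 and GF 6 the log2 difference was 0.56 and did not pass (limma adjusted p = 0.0524). Adam10, which releases CXCL16 and was named after its values were seen, had a log2 difference of -0.18 (adjusted p = 0.575).

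NF-kB induced inflammatory genes, among which chemokine genes are commonly counted, gave 1 rise and 1 fall of 18 tested, where 6.80% of all genes tested passed in either direction. Of these 18, 2 stood above 0 and 16 below, with a median log2 difference of -0.27, where 48.5% of all genes tested stood above 0 and their median was -0.02. The lean of the list was not tested. Il1a, the interleukin-1 alpha gene, stood at 16.2 ± 10.1 in GF and 44.1 ± 9.57 in SPF (SD, n = 7 each) and fell by 1.57 (limma adjusted p = 0.00660). Nfkbia, which encodes the inhibitor IkB-alpha, stood at 503 ± 103 in GF and 282 ± 49.4 in SPF and rose by 0.82 ± 0.13 (SE) on the log2 scale (limma adjusted p = 0.000402).

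Ccl3 and Ccl4 are among the genes that can be induced while microglia are isolated, so genes of that response were listed too. Of 15 immediate early and dissociation genes tested, 1 rose and 0 fell, where 3.70% of all genes tested rose and 3.10% fell. Their median log2 difference was -0.04. Rhob, a small GTPase gene, stood at 2317 ± 365 in GF and 1463 ± 182 in SPF (SD, n = 7 each) and rose by 0.66 ± 0.10 (SE) on the log2 scale (limma adjusted p = 0.000158). Fos, a stimulus-induced transcription factor gene named after its values were seen, was at 0 in 3 GF and 5 SPF libraries and reached at most 26.9 in GF and 29.2 in SPF. The part of this response in the spread of Ccl3 and Ccl4 was not tested.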

How the data were processed

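Messenger RNA of sorted microglia was measured in 7 GF and 7 SPF libraries, grouped by sample title. Reads were aligned to mm9 with TopHat, per the submitters' processing notes. How reads were counted (tool, strand, molecular tags) and scaled is not stated in those notes. What the authors deposited is a signal for each RefSeq transcript, called a normalized count here and scaled by library: between 84.5% and 86.7% of the positive values of a library were whole multiples of 1 step, within 0.01. Whole reads were therefore not recovered for all genes, no count model was run, and depth is given as summed values over the step.

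The table held 18487 rows, of which 217 had no symbol and were kept by accession, and 18119 matched RefSeq by accession. The row with the highest mean was kept per symbol. Values were tested as log2(value + 1.44), 1 millionth of the mean library total, which understates differences of low genes. Genes with a mean of at least 7.22, or 5 pseudocounts, were tested two-sided in R 4.3.3 by limma 3.58.1, its variance prior following the mean, adjusted by Benjamini-Hochberg over 8842 genes and called under 0.05. Adjusted p-values come from that limma fit, from a fit of 14096 genes where the text says that it had no filter, or from the alternative named beside them. Within-library ratios were compared by exact permutation over 3432 divisions in Python 3.11.15. The fit was tested on simulated data.

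The members and lists were chosen with earlier results of these data known. All members were named, with up to 4 genes per pathway list by adjusted p, or the gene with the smallest p where none passed, and the 2 genes most like each tested member. Cell type markers were listed likewise. Counting intervals and floors cover counting error only. Markers of other cell types are given as sums, and some singly. Alternatives were the pseudocount, filter, scaling, row choice, spread model, library weights, a replicate block and leaving out libraries. Some genes that the naming rule covers are not reported here.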

Additional observations from a re-analysis of the deposited data

Results flagged for a closer look

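Among the members, Ccl9 in GF 2 stood apart, at 256 normalized counts against 345 to 405 in the other GF libraries. Of the other genes named, Ccl5 stood apart in GF 1, at 73.9 against at most 21.2 in the other GF libraries, and in SPF 3, at 22.1 against at most 2.12 in the other SPF libraries. Cxcl10 stood apart in SPF 3, at 166 against at most 29.4. Il1a in SPF 7 was low, at 24.7 against 41.6 to 53.2 in the other SPF libraries. These were 5 of 39 gene and group combinations in which the gap of the extreme library, divided by the group's range, exceeded Dixon's 95% critical value, and chance gives about 1 in 20.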

How the results depend on the processing

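The fall of Ccl12 passed in each of the 28 alternatives run, and it was the single fall among the members, with 0 rises, in each of them. Members whose log2 difference lay near 0 turned sign without passing. Ccl3, at 0.01, gave -0.083 with upper-quartile scaling and -0.27 to 0.26 with single libraries left out. Ccl6, at 0.08, gave -0.011 with upper-quartile scaling, -0.044 without the pair of shallowest libraries (added after the data were seen) and -0.018 to 0.16 with single libraries left out. Cxcl16, at 0.04, gave -0.048 with upper-quartile scaling and -0.059 to 0.13 with single libraries left out. Ccrl2, at 0.00, gave 0.0034 with a pseudocount of 0.5 times the main one, 0.011 with trimmed-mean scaling, 0.091 with quantile normalization, 0.025 without GF 1 and GF 6 (also added later) and -0.19 to 0.15 with single libraries left out. The difference in the ratio of Ccl2 over Ccl12, at -0.11, gave 0.23 with 5 times the pseudocount and -0.37 to 0.32 with single libraries left out. Over all genes, 327 rises and 274 falls became 204 and 423 with upper-quartile scaling, 160 and 162 without the mean trend, and 241 to 339 and 172 to 294 with single libraries left out, the last low without SPF 7. Rises numbered 207 without GF 1 and GF 6. The cause of these shifts was not tested. With the replicate number as a block, 288 genes rose and 244 fell, and Ccl12 kept its difference of -0.98 (limma adjusted p = 0.0144). Libraries of the same number were not paired by the labels, and their deviations correlated between -0.06 and 0.05 (0 of 7 GF libraries correlated best with their own number). Depth limits Ccl2 and Cxcr4 most, at 55 and 9 reads over all GF libraries.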

Other observations

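Several chemokine genes under the filter on low values held reads in more libraries of one group than of the other. Over all genes, a mean of 25.1% were at 0 in a GF library and 21.8% in an SPF library. Mean depth was 1086526 read equivalents in GF and 1318671 in SPF. The part of depth in the patterns below was not tested. Pf4, a platelet chemokine gene also expressed by border macrophages, was at 0 in all 7 GF libraries and had 1, 5, 37, 3 and 1 reads in SPF 1 to SPF 5. In a fit with no filter its log2 difference was -1.37 ± 0.52 (SE, limma adjusted p = 0.166). Cxcl14 was at 0 in all GF libraries and above 0 in 4 SPF libraries (log2 difference -0.86, adjusted p = 0.168). Cxcr2, a neutrophil receptor gene, was above 0 in 3 GF libraries and at 0 in all SPF libraries (adjusted p = 0.351). Cxcl2, a neutrophil attractant gene, was above 0 in all 7 GF libraries and in 4 SPF libraries, and differed by 1.08 ± 0.39 (SE) on the log2 scale (limma adjusted p = 0.134). These genes were chosen after their values were seen, and none passed.

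Cxcr5, a receptor gene best known from B cells, stood at 99.5 ± 12.9 normalized counts in GF and 87.4 ± 20.2 in SPF (SD, n = 7 each, limma adjusted p = 0.507), with 61 to 116 reads in every GF library and 62 to 141 in every SPF library. Of the B cell markers, Cd79b averaged 84.2 in GF and 91.0 in SPF, while Cd79a was above 0 in 1 library of each group. Cxcr5 was also chosen after its values were seen.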
